A study of Mus musculus with 4 samples.

Results

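The genes described here mark the endothelium, the single cell layer that lines the aorta, or carry the adhesion of blood leukocytes to it. They comprise 43 genes chosen by symbol from knowledge of the cell type: surface, junction and signalling genes of endothelial identity, arterial genes, and the selectins and immunoglobulin-type receptors that bind leukocytes. The platform annotation gave all 43 at least 1 probe set of their own, 76 probe sets of 45101 on the array. Of the 43 genes, 39 passed a filter on low signal and are compared here among 11718 genes in all.

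Total RNA of mouse aorta was hybridised to 4 Affymetrix arrays, 1 per group. The groups were Ath29 congenic mice on Western diet, Ath29 congenic mice on chow, C57BL/6 apoE-/- control mice (B6) on Western diet and B6 mice on chow. All 4 are labelled with the strain C57BL/6, and Ath29 mice carry in addition a donor segment at the Ath29 atherosclerosis locus of chromosome 9. The labels call Ath29 mice resistant to atherosclerosis and give the apoE-/- genotype, which removes apolipoprotein E and raises blood cholesterol, for the controls only. Mice were weaned onto chow at 3 weeks of age and, from 4 weeks, stayed on it or ate the Western diet for 2 weeks. Whether each RNA came from 1 mouse or from pooled mice is not stated.

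Endothelial cells are held together by VE-cadherin, claudins and other junction proteins, respond to VEGF and angiopoietin through receptor tyrosine kinases, and are specified by ETS and SOX factors. In large arteries they face fast flow, release nitric oxide and store von Willebrand factor with P-selectin, while capillaries of fat and muscle also carry the proteins that hold lipoprotein lipase and take up fatty acids. In early atherosclerosis the arterial endothelium captures monocytes in steps: selectins slow them, and ICAM-1 and VCAM-1 then bind their integrins.

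With 1 array per group, no difference between 2 arrays has a replicate and none was tested. Intensities below are in the array's linear units after all arrays were shifted to a common median, and differences are in log2 units of these. A single reading below 27.4 units, the level the median over probe sets of the mean reading, is not told apart from background. In RNA of a whole vessel, fewer cells of a type and less RNA per cell cannot be told apart. A limma model with a strain term and a diet term, whose only error estimate is their interaction, called 0 of 11718 genes for either term after Benjamini-Hochberg adjustment. At an unadjusted p under 0.05 it gave 304 genes (2.59%) for strain and 291 (2.48%) for diet, among them 0 of the 39 members for each term.

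The arrays carried the smooth muscle signal of an aorta. The contractile genes Acta2, Tagln, Cnn1 and Myh11 all passed the filter. Acta2 read 10674 and 10395 units in Ath29 mice on Western diet and chow, against 10634 and 11269 in B6 mice. Myh11 was less even, at 1319 and 833 units in Ath29 mice on Western diet and chow, against 1369 and 2049 in B6 mice. On chow the log2 strain difference was -0.58 for Tagln and -0.07 for Cnn1. Albumin (Alb) lay between 33.7 and 64.0 units although the extract protocol names liver. The ratio of 3' to middle signal of the actin control was 7.62 and 10.2 in Ath29 mice on Western diet and chow, against 5.63 and 5.10 in B6 mice. On Western diet the actin 3' to 5' ratio was 28.5 in Ath29 and 25.4 in B6 mice, and on chow 31.5 and 24.4. The Gapdh one was 28.0 and 29.0 on Western diet and 22.8 and 31.3 on chow, in the same strain order. Both controls thus read far higher at the 3' end than at the 5' end on every array. The part of this 3' bias in the values below was not tested. Genes of heart muscle and fat also varied between the arrays and are given beside the members they moved with.

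Most endothelial members read above background on all 4 arrays and varied over them about as much as other genes did. Robo4 was below background on 3 arrays, Sele on 2 and Pecam1 on 1. Of the 39, 25 had a highest reading less than 1.5 times their lowest (64.1%, against 63.8% of all genes), 9 lay between 1.5 and 2 times, and 5 reached 2 times (12.8%, against 10.3% of all genes). Those 5 were Gpihbp1, Aplnr, Apln, Kdr and Mcam. The median ratio of highest to lowest was 1.43 for the members and 1.38 for all genes.

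**Figure D1:**
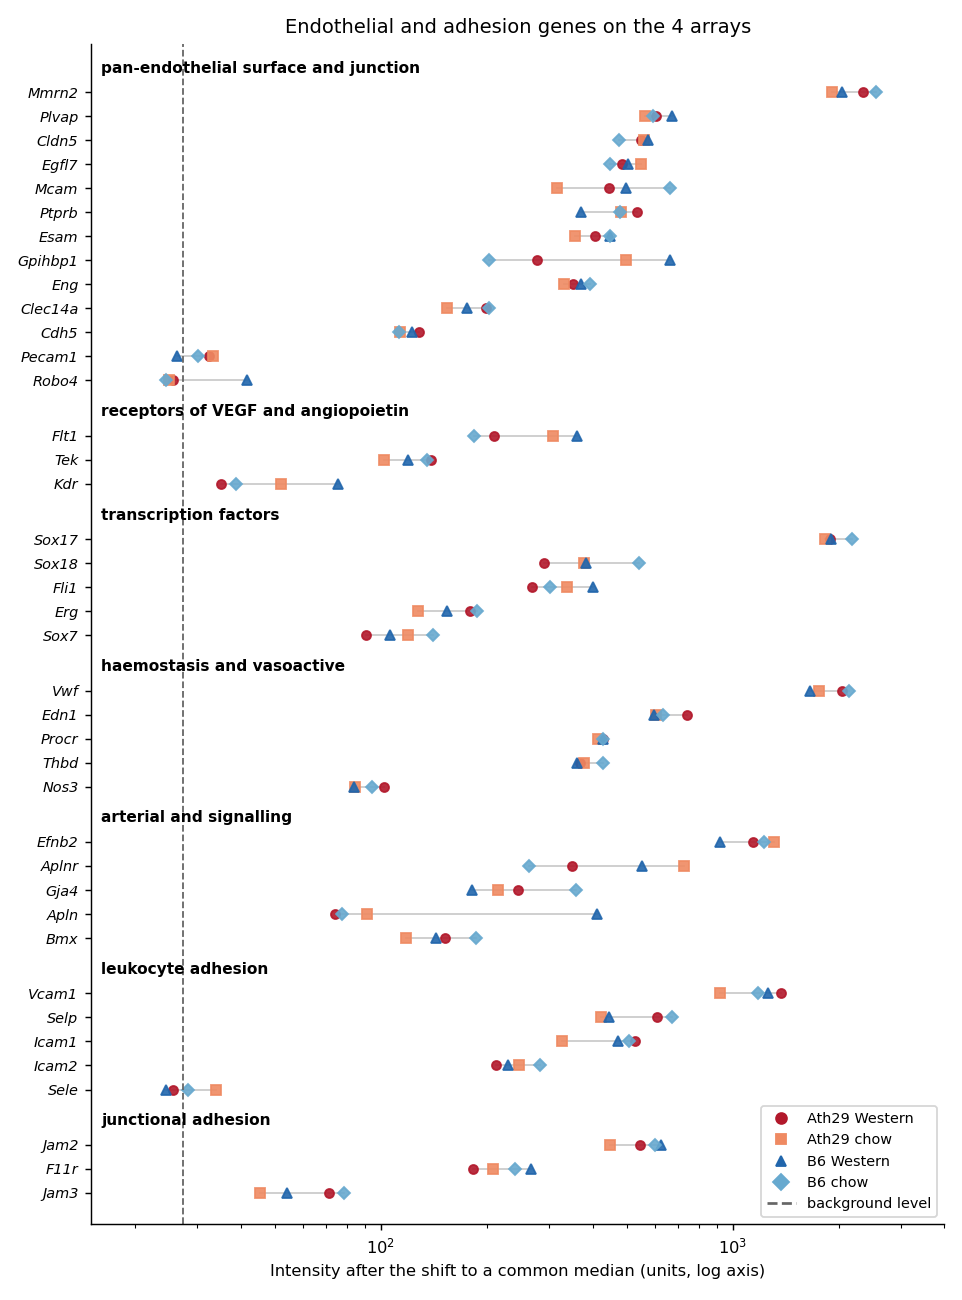
Intensity after the shift to a common median (units, log axis) of the 39 genes that passed the filter, grouped by role, with 1 point per array and a grey line over its range; the dashed line is the background level of 27.4 units. Most genes form tight clusters of points, while Gpihbp1, Aplnr, Apln, Kdr and Mcam spread over at least 2-fold.

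Among the surface and junction genes, Mmrn2, an extracellular glycoprotein of the endothelium, was the brightest. It read 2348 and 1922 units in Ath29 mice on Western diet and chow, against 2044 and 2551 in B6 mice on Western diet and chow. Plvap, which forms the diaphragms of fenestrae and caveolae, read 605 and 563 units in Ath29 mice on the same diets, against 673 and 594 in B6 mice. Mmrn2 had no common direction by strain or diet, while Plvap was slightly higher on Western diet in both strains (log2 differences of 0.10 in Ath29 and 0.18 in B6 mice). The tight junction claudin Cldn5 read 550.4 and 558 units in Ath29 mice on Western diet and chow, against 575 and 475 in B6 mice. The secreted factor Egfl7 read 483 and 550.2 units in the Ath29 arrays, against 505 and 448 in the B6 arrays, in the same diet order. On these probe sets Cldn5 and Egfl7 were both lowest in B6 chow. Of the other 3 Egfl7 probe sets above the filter, 1 was also lowest there and 2 were highest there, at 238 and 88.6 units. Among other genes of this role, the VE-cadherin gene Cdh5 ran from 113 to 128 units, a ratio of 1.14, and the TGF-beta co-receptor gene Eng had a ratio of 1.19. Ptprb, a phosphatase that acts on VE-cadherin and the angiopoietin receptor, had a ratio of 1.44 and Clec14a, a lectin that binds Mmrn2 protein, one of 1.32. The classical marker Pecam1 (CD31) lay at 26.4 to 33.4 units on its single probe set, hardly above background, so its level says little here. Emcn, an endothelial sialomucin also known from capillaries and veins, was below the filter with at most 14.4 units.

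Endothelial genes of haemostasis and vessel tone had the lowest median ratio of the 7 roles, 1.22, and all 5 had ratios under 1.5. Von Willebrand factor (Vwf), which tethers platelets, read 2042 and 1763 units in Ath29 mice on Western diet and chow, against 1656 and 2143 in B6 mice. Endothelin 1 (Edn1), a vasoconstrictor, read 743 and 604 units in Ath29 mice on Western diet and chow, against 597 and 635 in B6 mice. Thrombomodulin (Thbd), an anticoagulant receptor, read 369 and 378 units in the Ath29 arrays, against 361 and 428 in the B6 arrays. Procr, the endothelial protein C receptor, was almost identical everywhere, at 428 and 414 units in Ath29 mice on Western diet and chow, against 428 and 428 in B6 mice. The nitric oxide synthase gene Nos3 had a ratio of 1.22. All 5 log2 differences between Ath29 and B6 mice on chow were below 0, from -0.28 (Vwf) to -0.05 (Procr), and 4 of the 5 on Western diet were above 0, up to 0.31 (Edn1). On chow 6906 of the 11718 genes were also below 0, and with quantile normalization 3 of the 5 were, with Procr at 0.06 and Edn1 at 0.02. None reached 2-fold. Platelets also hold Vwf and P-selectin. In the platelet and megakaryocyte list 5 of 8 genes passed. Over the 7 with a probe set, Itga2b and Treml1 below the filter included, it summed to 3782 and 4196 units in Ath29 mice on Western diet and chow, against 4536 and 5023 in B6 mice. Pf4, its brightest gene, had log2 strain differences of -0.14 on chow and -0.23 on Western diet, and Gp1bb of -0.06 and 0.32. Ppbp and Tubb1 were lower in Ath29 mice on both diets, with Ppbp at 55.4 and 127 units in Ath29 mice on Western diet and chow, against 168 and 333 in B6 mice. Vwf did not follow that order, and the part of platelets in these values was not tested.

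The transcription factors of endothelial fate were all detected. Sox17, a SOX factor of arterial identity, read 1896 and 1834 units in Ath29 mice on Western diet and chow, against 1898 and 2185 in B6 mice. Its relative Sox18 read 291 and 379 units in the Ath29 arrays, against 383 and 539.8 in the B6 arrays. Sox18 was lower in Ath29 than in B6 mice on each diet (log2 differences of -0.51 on chow and -0.40 on Western diet), and lower on Western diet than on chow in each strain (-0.38 in Ath29 and -0.49 in B6 mice). Sox7 showed the same 4 signs, with values from -0.41 to -0.22. Sox18 and Sox7 were 2 of 11 members below 0 between strains on both diets (28.2%, against 26.7% of all genes), and all 8 values were under 2-fold. Erg, an ETS factor that maintains endothelial identity, read 179.7 and 128 units in Ath29 mice on Western diet and chow, against 154 and 188 in B6 mice. Fli1, an ETS factor shared by endothelial cells and megakaryocytes, read 269 and 337 units in the Ath29 arrays, against 399 and 303 in the B6 arrays. Erg was highest in B6 mice on chow, and Fli1 in B6 mice on Western diet. A second Fli1 probe set gave log2 strain differences of 0.07 (chow) and -0.52 (Western diet), beside 0.15 and -0.57 from the first.

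Between strains, few members reached 2-fold. On chow, 2 of the 39 members were at least 2-fold higher in Ath29 than in B6 mice, Gpihbp1 and Aplnr (5.13%, against a background of 2.17% of all genes). Mcam alone was at least 2-fold lower (2.56%, background 1.94%). On Western diet 0 members were at least 2-fold higher (background 0.845%) and 3 were lower, Gpihbp1, Kdr and Apln (7.69%, background 2.03%). Not one member passed 2-fold one way under both diets, as were 30 of the 11718 genes. The median strain difference was -0.20 over the members on chow and -0.08 over all genes, and on Western diet it was -0.00 over the members and 0.00 over all genes.

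Between diets, the median difference was 0.08 over the members in Ath29 mice (0.04 over all genes) and -0.18 in B6 mice (-0.06 over all genes). In Ath29 mice 0 members were at least 2-fold higher on Western diet (background 1.33%) and 1 was lower, Aplnr (2.56%, background 0.853%). In B6 mice 3 were at least 2-fold higher, Gpihbp1, Aplnr and Apln (7.69%, background 4.11%), and 0 lower (background 1.17%). The shares rest on 1 to 3 genes each. Across the 39 members, 23 had strain differences of opposite sign on the 2 diets (59.0%), near the 54.8% of all genes.

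**Figure D2:**
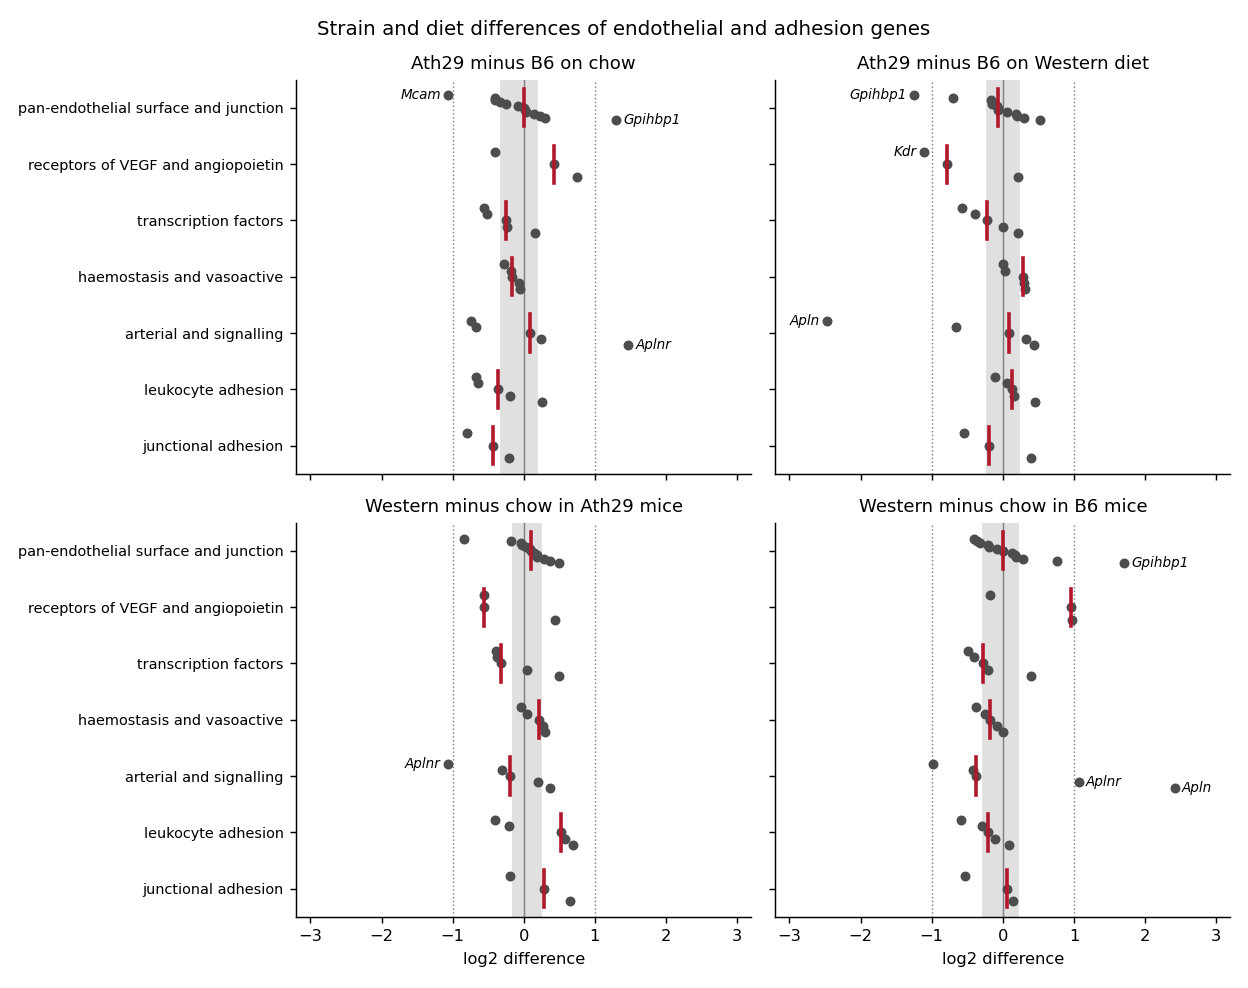
Log2 differences of the 39 members by role (1 dot per gene, red bar at the role's median) in the 4 comparisons; the grey band runs between the quartiles of all 11718 genes and dotted lines mark 2-fold. Nearly all dots lie within 2-fold, and the labelled exceptions are Gpihbp1, Aplnr, Apln, Kdr and Mcam.

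Apart from Mcam, described with chromosome 9, the members that reached 2-fold in a strain or diet comparison were Gpihbp1, Aplnr, Apln and Kdr. Gpihbp1, which carries lipoprotein lipase to the luminal face of capillaries in fat and muscle, read 278 and 499 units in Ath29 mice on Western diet and chow, against 664 and 203 in B6 mice. In Ath29 relative to B6 mice it was 2.45-fold higher with chow and 2.38-fold lower with Western diet. Western diet against chow gave 3.26-fold higher in B6 mice and 1.79-fold lower in Ath29 mice. The apelin receptor gene Aplnr, which marks sprouting and capillary endothelium, read 349 and 729 units in Ath29 mice on Western diet and chow, against 551 and 263 in B6 mice. Aplnr was 2.77-fold higher in chow-fed Ath29 mice and 1.58-fold lower in Western-fed Ath29 mice than in B6 mice. Its dimmer probe set, at 34.4 to 56.0 units, gave log2 strain differences of 0.16 on chow and -0.45 on Western diet and diet differences of 0.09 in Ath29 and 0.70 in B6 mice, so the 2-fold calls for Aplnr rest on 1 probe set. Its ligand apelin (Apln) stood out on 1 array, with 74.2 and 91.5 units in Ath29 mice on Western diet and chow, against 412 and 77.3 in B6 mice. Apln on Western diet was therefore 5.55-fold lower in Ath29 than in B6 mice, and 5.33-fold higher than on chow in B6 mice. The other 3 arrays lay between 74.2 and 91.5 units for Apln.

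The VEGF receptors are the kinases through which endothelium senses VEGF. Kdr (VEGFR2), the main signalling receptor, read 35.1 and 51.8 units in Ath29 mice on Western diet and chow, against 75.5 and 38.7 in B6 mice. Flt1 (VEGFR1), which also acts as a decoy, read 209 and 309 units in the Ath29 arrays, against 361 and 184 in the B6 arrays. On these probe sets each was highest in B6 mice on Western diet and next highest in Ath29 mice on chow. Log2 strain differences were 0.42 with chow and -1.11 with Western diet for Kdr, and 0.74 with chow and -0.79 with Western diet for Flt1. The other 2 Flt1 probe sets above the filter also gave positive strain differences in chow-fed mice (0.25 and 1.88) and negative ones in Western-fed mice (-0.41 and -0.25). Both were highest in Ath29 mice on chow, however, at 41.9 and 50.4 units, against 35.2 and 13.7 in B6 mice on chow. The reading of 13.7 units is below background. The angiopoietin receptors differed from this pattern. Tek (Tie2) read 138 and 102 units in Ath29 mice on Western diet and chow, against 119.5 and 135 in B6 mice, and Tie1 lay below the filter at 18.1 to 31.5 units.

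Subtracting the strain difference on chow from that on Western diet gives the strain by diet difference. It was at least 2-fold negative for 5 of the 39 members (12.8%, background 6.77%): Apln (-2.72), Gpihbp1 (-2.55), Aplnr (-2.13), Kdr (-1.53) and Flt1 (-1.53). It was at least 2-fold positive for 3 (7.69%, background 4.95%): Jam3 (1.19), Gja4 (1.18) and Selp (1.12). This value uses all 4 arrays once, so a single unusual array can set it. These counts rest on each gene's brightest probe set and have no test. The dimmer Aplnr probe set gave -0.61, under 2-fold. Of the other Flt1 probe sets above the filter, one gave -0.66 and one -2.13. Both dimmer Selp probe sets were under 2-fold, at 0.57 and 0.54.

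The RefSeq sequences of 250 bases before to 50 after the transcript start (build GRCm38.p6) are shown for 3 of the 5 genes with the negative difference. On the brightest probe sets the 5 share a sign in every comparison, which choosing them by that difference favours. Gpihbp1 and Aplnr had no entry in the table used. Capitals mark the ETS core GGAA or TTCC, the letters at which ERG and FLI1 bind, on either strand. The windows are Apln at chrX:48034804-48035103, minus strand, Flt1 at chr5:147725962-147726261, minus strand, and Kdr at chr5:75978406-75978705, minus strand.
Apln: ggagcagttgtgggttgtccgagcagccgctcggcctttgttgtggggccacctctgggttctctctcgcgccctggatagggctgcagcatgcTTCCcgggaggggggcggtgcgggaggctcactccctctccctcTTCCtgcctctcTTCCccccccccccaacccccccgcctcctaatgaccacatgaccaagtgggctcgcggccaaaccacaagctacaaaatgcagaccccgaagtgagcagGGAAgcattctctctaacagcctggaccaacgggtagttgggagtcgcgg
Flt1: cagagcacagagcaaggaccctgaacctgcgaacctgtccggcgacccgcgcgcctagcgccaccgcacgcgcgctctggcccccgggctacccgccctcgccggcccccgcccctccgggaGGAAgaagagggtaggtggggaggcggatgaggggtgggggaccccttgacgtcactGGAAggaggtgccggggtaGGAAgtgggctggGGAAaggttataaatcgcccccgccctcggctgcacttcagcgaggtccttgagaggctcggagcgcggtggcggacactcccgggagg
Kdr: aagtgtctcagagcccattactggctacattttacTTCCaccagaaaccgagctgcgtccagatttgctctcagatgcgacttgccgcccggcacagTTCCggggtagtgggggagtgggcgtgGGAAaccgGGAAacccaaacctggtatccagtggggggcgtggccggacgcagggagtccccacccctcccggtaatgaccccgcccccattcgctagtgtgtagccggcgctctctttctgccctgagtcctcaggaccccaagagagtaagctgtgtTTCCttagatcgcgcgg
The Apln and Flt1 windows held 4 ETS cores each and the Kdr window 5. Of 32851 promoter windows of mouse genes 96.0% held at least 1, with a median of 3 and an upper quartile of 5.

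Genes of fat and heart also differed between the arrays. The brown fat markers Ucp1, Cox8b, Cidea, Elovl3 and Otop1 (5 of 5 passed, none at 0) summed to 7570.2 and 9561 units in Ath29 mice on Western diet and chow, against 12756 and 6112 in B6 mice. Gpihbp1 and Flt1 had this order over the 4 arrays, and Aplnr, Apln and Kdr did not. All 7 listed markers of capillaries and lipid uptake in fat and muscle passed. Of the 4 brightest, Fabp4 had log2 differences between -0.10 and 0.10 in the 4 comparisons, and Rgcc had strain differences of 0.74 on chow and -0.31 on Western diet. Meox2 was lower in Ath29 mice on both diets (-0.34 on chow and -0.37 on Western diet). Cd36, the fatty acid translocase, read 1386 and 1985 units in Ath29 mice on Western diet and chow, against 2741 and 929.9 in B6 mice. The median log2 strain difference of this list was 0.74 for chow and -0.62 for Western diet, and its median diet difference -0.30 in Ath29 and 1.07 in B6 mice. Several of its genes, Fabp4 and Aqp7 among them, are also expressed by fat cells. Heart muscle and endocardium genes, 7 of 7 above the filter, summed to 437 and 630.1 units in Ath29 mice on Western diet and chow, against 9778 and 715 in B6 mice. The 6 muscle genes of that list (Tnnt2, Myh6, Actc1, Mb, Tnni3 and Myl7) were higher on Western diet in B6 mice by 3.21 (Tnnt2) to 5.28 (Myl7) log2 units, whereas the endocardial marker Npr3 differed by -0.08. Mb and Tnni3 were at least 2-fold lower in Ath29 mice on both diets, but their chow readings were low. On chow Mb read 27.9 units in Ath29 mice, hardly above background, and 56.2 in B6 mice. Tnni3 read 8.76 units in Ath29 mice on chow, below background, and 28.5 in B6 mice, hardly above it. The chow differences of Mb and Tnni3 thus rest on Ath29 readings not clearly above background. Apln, like those muscle genes, stood apart in B6 mice on Western diet. The part of fat or heart tissue in the values of Gpihbp1, Aplnr, Apln, Kdr and Flt1 was not tested. Vegfa, the ligand of Kdr and Flt1, read 237 and 239 units in Ath29 mice on Western diet and chow, against 459 and 182 in B6 mice.

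**Figure D3:**
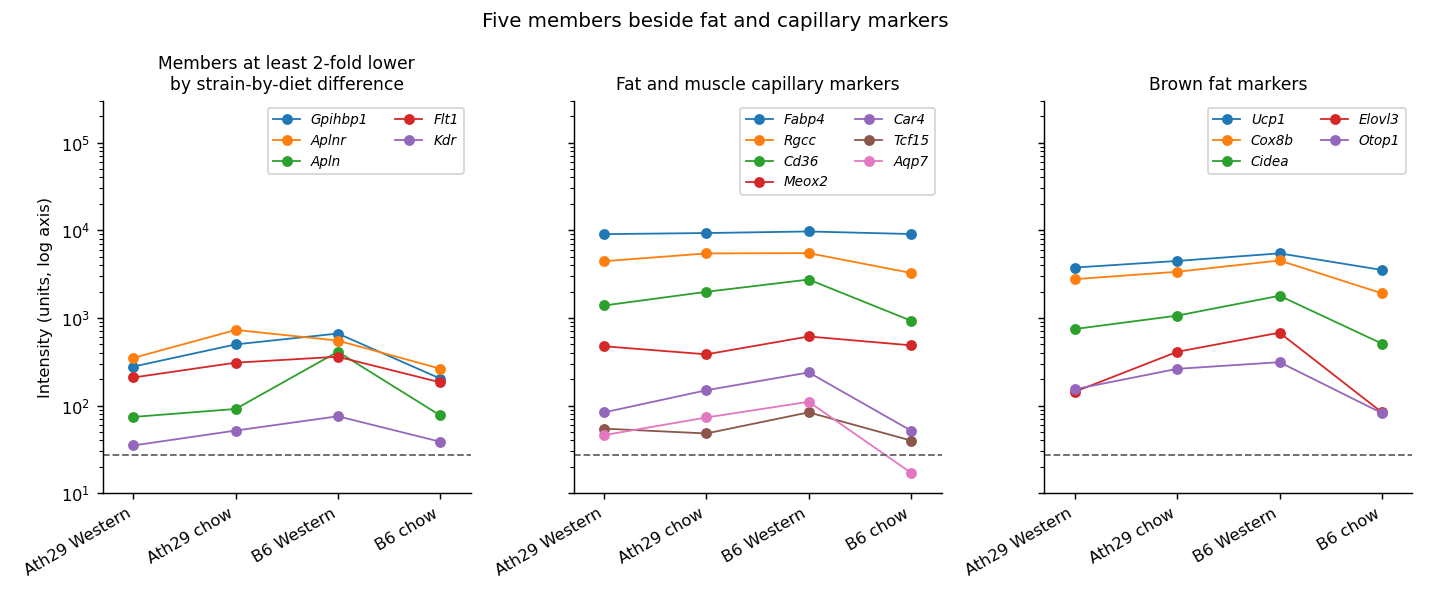
Intensity (units, log axis) on the 4 arrays of the 5 members with a strain by diet difference of at least 2-fold below 0 (left), of 7 listed capillary markers of fat and muscle (middle) and of 5 brown fat markers (right); the dashed line is the background level, and lines join readings of 1 gene. Gpihbp1, Flt1 and Kdr share with Cd36 and the brown fat genes their highest reading in B6 Western, while Apln is high there only.

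The arterial genes gave another picture. Efnb2, the ephrin that marks arterial endothelium and is also made by smooth muscle, read 1145 and 1311 units in Ath29 mice on Western diet and chow, against 918 and 1228 in B6 mice. Gja4, connexin 37 of the arterial gap junctions, read 246 and 215 units in the Ath29 arrays, against 182 and 359 in the B6 arrays. Gja4 was 1.98-fold lower on Western diet than on chow in B6 mice, and 1.14-fold higher in Ath29 mice. The arterial kinase Bmx had log2 strain differences of -0.67 on chow and 0.09 on Western diet. The order of Gja4 over the 4 arrays was the reverse of that of Gpihbp1, and that of Bmx was not. The connexin 40 gene Gja5 read at most 4.69 units and the Notch ligand gene Dll4 at most 34.6 units, both below the filter. Of the 20 readings of Emcn, Tie1, Gja5 and Dll4, the 4 members below the filter, 2 reached the background level.

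On their brightest probe sets the leukocyte adhesion genes differed by less than 2-fold in all 4 comparisons. On the same probe sets 3 of the 5 had their lowest reading in Ath29 mice on chow. So did 16 of the 39 members (41.0%), among them Mmrn2, Erg, Tek, Mcam, Esam and Jam3, and 31.8% of all genes. VCAM-1 (Vcam1), which binds the monocyte integrin VLA-4, read 1369 and 919 units in Ath29 mice on Western diet and chow, against 1257 and 1181 in B6 mice. ICAM-1 (Icam1), the counter-receptor of the leukocyte integrins LFA-1 and Mac-1, read 526 and 327 units in the Ath29 arrays, against 472 and 508 in the B6 arrays. P-selectin (Selp), which starts leukocyte rolling, read 609 and 423 units in the Ath29 arrays, against 445 and 671 in the B6 arrays. On these brightest probe sets Ath29 chow was the lowest of the 4 arrays for each of the 3, closely followed by B6 Western for Selp. Both dimmer Selp probe sets were lowest in B6 Western, at 74.6 and 82.6 units. In Ath29 mice Western diet over chow was 1.49-fold for Vcam1, 1.61-fold for Icam1 and 1.44-fold for Selp. In B6 mice the log2 differences of the same genes were 0.09, -0.11 and -0.59. ICAM-2 (Icam2), a constitutive ligand of LFA-1, was slightly lower on Western diet in both strains (-0.21 in Ath29 and -0.30 in B6 mice), with 212 and 246 units in Ath29 mice on Western diet and chow, against 230.4 and 283 in B6 mice. E-selectin (Sele), which endothelium makes on cytokine stimulation, stayed at background, between 24.6 and 34.0 units.

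**Figure D4:**
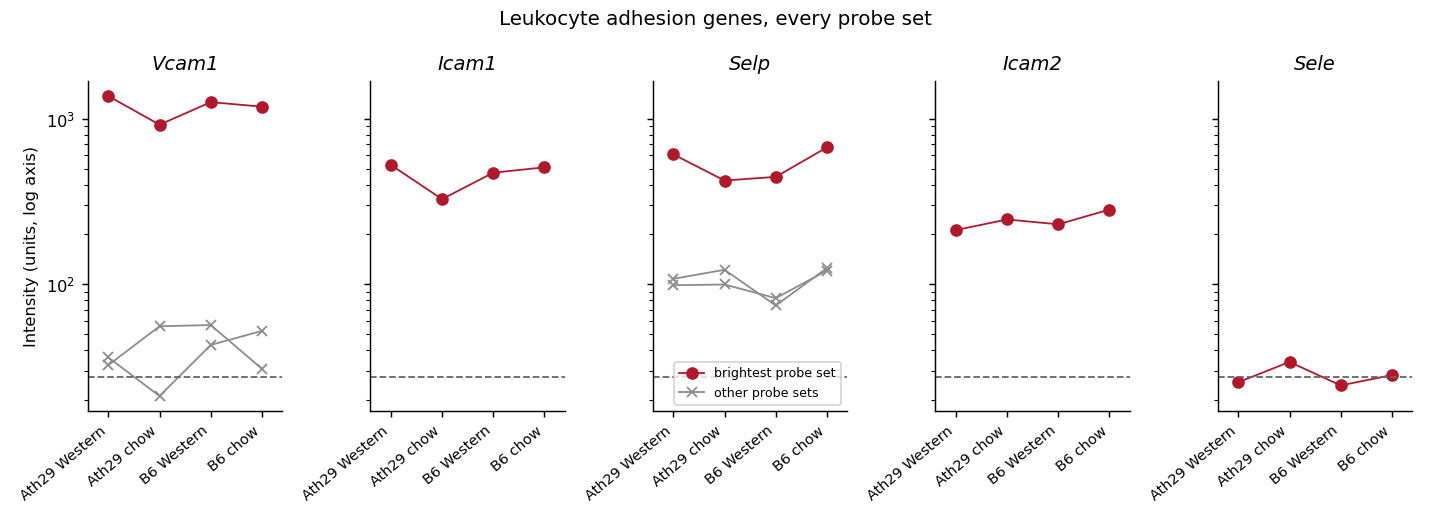
Intensity (units, log axis) of every probe set of the 5 leukocyte adhesion genes on the 4 arrays, with the brightest probe set in red and others in grey; the dashed line is the background level, and lines join readings of 1 probe set. The brightest Vcam1, Icam1 and Selp probe sets are lowest in Ath29 chow, and Sele stays near the dashed line.

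The low chow value in Ath29 mice was shared with some other roles but not all. The median log2 difference between strains on chow was -0.36 over the 5 adhesion genes and 0.00 over the 13 surface and junction genes. It was also below 0 for the junctional adhesion genes (-0.43), the transcription factors (-0.25), the haemostasis genes (-0.16) and the 7 smooth muscle markers (-0.34). It was above 0 for the receptors of VEGF and angiopoietin (0.42) and the arterial and signalling genes (0.09). Over all genes the chow median was -0.08. With quantile normalization the chow medians were -0.27 for the adhesion genes, -0.07 for the haemostasis genes and -0.00 over all genes. On Western diet the medians were 0.12 over the adhesion genes and -0.06 over the surface and junction genes. In Ath29 mice, Western minus chow gave 0.52 over the adhesion genes and 0.10 over the surface and junction genes, and in B6 mice -0.21 and -0.00. Individual probe sets did not all follow the brightest. Of the dimmer Vcam1 probe sets, one (30.9 to 56.8 units) gave 0.85 between strains on chow and the other (21.2 to 52.4 units) -1.31. The lowest reading of the latter, 21.2 units in Ath29 mice on chow, is below background. In the same order their diet differences were -0.78 and 0.77 in Ath29 mice, and 0.88 and -0.28 in B6 mice. The dimmer Selp probe sets gave strain differences of -0.03 and -0.28 with chow, and diet differences of -0.18 and -0.01 in Ath29 mice. The Ath29 chow array also had the highest actin 3' to middle ratio, 10.2, but the lowest Gapdh one, 8.87. The part of RNA quality in these low readings was not tested. Smooth muscle can also make VCAM-1 and ICAM-1, and the aortic signal does not separate the cell types.

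Promoter windows are shown for Icam1 and Selp, leukocyte adhesion genes known to be induced through NF-kB. They lie at chr9:21015690-21015989, plus strand, and at chr1:164115014-164115313, plus strand, in the same RefSeq table and build. Capitals mark matches to the NF-kB-like motif GGNNTTTCC on either strand, which contains the ETS core.
Icam1: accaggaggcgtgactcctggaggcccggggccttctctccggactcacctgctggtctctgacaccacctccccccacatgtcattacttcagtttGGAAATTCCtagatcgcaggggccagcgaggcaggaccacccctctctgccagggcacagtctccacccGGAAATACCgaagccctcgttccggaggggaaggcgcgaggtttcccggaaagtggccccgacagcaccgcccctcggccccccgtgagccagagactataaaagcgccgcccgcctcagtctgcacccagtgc
Selp: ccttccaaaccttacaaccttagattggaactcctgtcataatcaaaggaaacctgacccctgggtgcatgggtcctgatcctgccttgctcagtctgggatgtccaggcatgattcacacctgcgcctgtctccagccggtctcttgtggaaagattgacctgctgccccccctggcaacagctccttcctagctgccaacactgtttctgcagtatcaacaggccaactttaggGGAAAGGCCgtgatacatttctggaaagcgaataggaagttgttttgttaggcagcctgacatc
The Icam1 window held 2 matches, GGAAATTCC and GGAAATACC, whose first bases lie 153 and 84 bases before the start. The Selp window held 1, GGAAAGGCC, 14 bases before the start. A match was found in 5.82% of the 32851 windows and 2 or more in 0.253%. Of 24 members with a window in the table, 4 had a match (Icam1, Selp, Egfl7 and Gja4). The window of the cytokine-induced adhesion gene Sele, not shown here, held 0 matches. A match is a string of letters and not a shown binding site.

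The NF-kB and cytokine list had 10 of 15 genes above the filter. The inhibitor gene Nfkbia, itself an NF-kB target, read 8232 and 8286 units in Ath29 mice on Western diet and chow, against 8512 and 8246 in B6 mice. Tnfaip3, another NF-kB target and inhibitor, read 232 and 136 units in Ath29 mice on Western diet and chow, against 253 and 219 in B6 mice. Tnfaip3 was lowest in Ath29 mice on chow, as were Icam1 and 31.8% of all genes. Rela, the p65 subunit, and the TNF receptor gene Tnfrsf1a had log2 differences between -0.04 and 0.14 in all 4 comparisons. Cx3cl1, the membrane-bound chemokine of endothelium, had a diet difference of 0.25 in Ath29 and 0.04 in B6 mice. The list's median diet difference was 0.15 in Ath29 and 0.05 in B6 mice. In this list 1 gene, the interleukin 1 receptor gene Il1r1, was at least 2-fold different. Il1r1 read 45.9 and 17.7 units in Ath29 mice on Western diet and chow, against 65.0 and 82.3 in B6 mice. Its 2-fold differences rest on the reading of 17.7 units, which is below background. Tnf, Il1b and Ccl2 were below the filter. So were the readings of Nfkb2.

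Integrins and other partners on the leukocyte side were measured for 14 of 15 listed genes, and 13 passed. The brightest were Cd44, Cd99l2, Itga6 and Itgb1, which other cells of the wall also make. Cd44, a hyaluronan receptor that binds E-selectin when suitably glycosylated, read 1069 and 643 units in Ath29 mice on Western diet and chow, against 648 and 785 in B6 mice. The beta-2 integrin gene Itgb2, the leukocyte partner of ICAM-1, read 161 and 91.3 units in the Ath29 arrays, against 169 and 71.8 in the B6 arrays, and was the 1 gene of this list at least 2-fold higher on Western diet in B6 mice. Macrophage markers, 8 of 8 above the filter, summed to 8796 and 5538 units in Ath29 mice on Western diet and chow, against 9159 and 4666 in B6 mice. Of its genes, Ctss and Mpeg1 were at least 2-fold higher on Western diet in both strains, and the bright markers Csf1r, Lyz2 and Cd163 were higher in both by less than 2-fold. On its brightest probe set the diet difference of Vcam1 was also above 0 in both strains (0.57 in Ath29 and 0.09 in B6 mice). Each dimmer Vcam1 probe set gave opposite signs in the strains. On the brightest probe sets the diet differences of Icam1 and Selp were above 0 in Ath29 mice and below 0 in B6 mice.

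The junctional adhesion molecules sit at endothelial borders where leukocytes cross. Jam2 (JAM-B) read 546 and 447 units in Ath29 mice on Western diet and chow, against 624 and 601 in B6 mice. Jam3 (JAM-C) read 71.1 and 45.3 units in the Ath29 arrays, against 54.2 and 78.6 in the B6 arrays. F11r (JAM-A) read 183 and 208 units in the Ath29 arrays, against 266 and 240.1 in the B6 arrays. Jam2 and F11r were lower in Ath29 mice on both diets, with log2 differences of -0.43 (chow) and -0.19 (Western diet) for Jam2, and -0.21 (chow) and -0.54 (Western diet) for F11r. Jam3 was lower in Ath29 mice on chow (-0.80) and higher on Western diet (0.39).

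Of the 39 members, 6 lie on chromosome 9, where the Ath29 locus is. Whether these 6 lie inside the donor segment was not determined here. In gene order they are Icam1, Jam3, Fli1, Robo4, Esam and Mcam, at places 52 to 147 of 649 measured genes. Mcam (CD146), a cell adhesion molecule of endothelium, pericytes and smooth muscle, read 446 and 318 units in Ath29 mice on Western diet and chow, against 499 and 664 in B6 mice. The reading in Ath29 mice was 2.09-fold lower with chow and 1.12-fold lower with Western diet. Esam, an endothelial junction protein, read 405 and 356 units in the Ath29 arrays, against 449 and 449 in the B6 arrays, so its log2 strain difference was -0.34 on chow and -0.15 on Western diet. Robo4, an endothelial guidance receptor, stood above background on 1 array, at 41.6 units in B6 mice on Western diet, and lay between 24.5 and 25.7 units on the other 3. Icam1 and Jam3 were lower on chow and higher on Western diet in Ath29 mice. Of the 6, 0 passed 2-fold one way under both diets, against 13 of 649 measured genes on the chromosome. With chow, the median strain difference was -0.49 over the 6, -0.18 over the other 33 members and -0.08 over all 649 genes of the chromosome. With Western diet these medians were -0.15 over the 6, 0.03 over the other 33 members and 0.01 over the 649 genes.

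**Figure D5:**
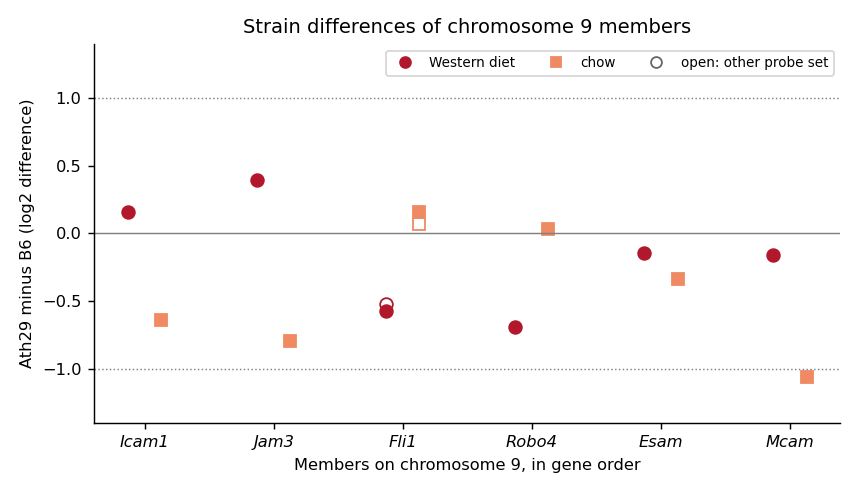
Log2 difference of Ath29 minus B6 for the 6 members on chromosome 9, in gene order, on Western diet (red circles) and chow (orange squares); open symbols are a further probe set of the gene, and dotted lines mark 2-fold. Mcam on chow, at -1.06, is the single value past 2-fold.

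A pair of further lists covered the wider pathway. Angiogenic ligands and partners had 24 of 26 genes above the filter. Their 4 brightest, caveolin 1 (Cav1), beta-catenin (Ctnnb1), the VEGF co-receptor gene Nrp1 and the junction scaffold gene Tjp1, had log2 differences between -0.25 and 0.29 in every comparison. In that list, 3 genes were at least 2-fold higher on Western diet in B6 mice (the member Aplnr, Vegfa and Nectin2). The tight junction gene Ocln went past 2-fold in all 4 comparisons without a common direction, at 62.5 and 30.4 units in Ath29 mice on Western diet and chow, against 21.6 and 74.5 in B6 mice. Its reading of 21.6 units in B6 mice on Western diet is below background. Endothelial transcription factors other than the members had 15 of 16 above the filter, and their median strain difference was -0.30 on chow and 0.12 on Western diet. Their 4 brightest, Foxo1, Klf4, Ets2 and Mef2c, had log2 differences between -0.33 and 0.32 in the 4 comparisons. The flow-induced factor Klf2, which restrains adhesion genes, was the 1 gene of that list past 2-fold, with 155 and 47.9 units in Ath29 mice on Western diet and chow, against 119 and 182 in B6 mice. Klf2, like Icam1 and the brightest Vcam1 probe set, was lowest in Ath29 mice on chow, as were 31.8% of all genes. Of the lymphatic endothelium markers, 5 of 7 were above the filter, with Pdpn, Lyve1, Reln and Mmrn1 as the brightest and the lymphatic factor Prox1 below it. The 6 with a probe set, Prox1 included, summed to 2527 and 1860 units in Ath29 mice on Western diet and chow, against 2678 and 2131 in B6 mice.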

How the data were processed

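The authors deposited 1 table of linear intensity values per probe set and array, read as linear from the values (0.57 to 13421). Per the labels' protocols, cRNA was labelled with biotin from 8 ug of RNA. For summary software, background correction and scaling the sources used here give nothing. Probe sets were named from the platform annotation, in which 34945 have 1 gene symbol, and gene identifiers were looked up in a GRCm38.p6 gene table, which changed the symbol of 0 member probe sets. Values were taken to log2, shifted to a common median, and raised to a floor at the 25th percentile (9.60 units). Probe sets with a mean above the median of all probe sets (27.4 units) were kept, and each gene was read from its brightest probe set. Genes at least 2-fold different were counted. limma 3.58.1 fitted strain plus diet and was tested on simulated data. With 1 array per group the number of arrays limits precision.

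The members, lists and tests were chosen with earlier results of these data known. Members were given in full where at least 2-fold different, on chromosome 9, or among the 4 brightest of their role. Of the other lists described, the 4 brightest genes were named and any at least 2-fold in the same direction in both comparisons of a kind. Vegfa, Klf2, Tnfaip3, Myl7, Il1r1, Itgb2, Nectin2, Ocln, Otop1, Aqp7, Prox1, Tnf, Il1b, Ccl2 and Nfkb2 were named after their values were seen. The closing section gives the alternatives.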

Additional observations from a re-analysis of the deposited data

Results flagged for a closer look

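Gpihbp1 passed 2-fold both ways between strains, depending on the diet, with log2 differences of 1.29 on chow and -1.25 on Western diet. Aplnr passed 2-fold both ways between diets, depending on the strain, with -1.06 in Ath29 and 1.07 in B6 mice. Each value compares 1 array with 1 array, and the difference between them was not tested. Brown fat markers were in the same order as Gpihbp1 over the 4 arrays, and their part in these values was not tested.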

How the results depend on the processing

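No paired analysis was possible because each group is 1 array, and no array could be left out for the same reason. Of 10 differences of single members at least 2-fold, 6 stayed at least 2-fold in the same direction under all 9 alternatives that gave them a value. Mcam on chow was -0.97 with quantile normalization. Aplnr depended on the probe set. With the mean of its probe sets its strain difference on chow was 0.82, its diet difference -0.49 in Ath29 and 0.88 in B6 mice, and with probe sets for several transcripts left out the strain difference was 0.16 and the B6 diet difference 0.70. The diet difference of Aplnr in Ath29 mice thus reversed, to 0.0891. Members at least 2-fold higher in Ath29 mice on chow numbered 1 under each of those 2 settings, against 2. Lower on chow there were 0 with quantile normalization or without such probe sets and 6 at 1.5-fold, against 1. Higher on Western diet there was 1 with no filter, against 0, and lower 6 at 1.5-fold, against 3. On Western diet over chow in Ath29 mice, 2 were higher at 1.5-fold, against 0, and 2 lower at 1.5-fold, but 0 with the mean of probe sets or without probe sets for several transcripts, against 1. In B6 mice 6 were higher at 1.5-fold and 5 with no shift, against 3, and 2 lower at 1.5-fold, against 0. The members' median strain difference on chow was -0.10 with quantile normalization, against -0.20. The strain by diet difference was not recomputed under these alternatives. The additive fit called 2 genes for strain with the stricter filter, 1 with a floor at 1 and 1 without probe sets for several transcripts, and 2 for diet under the last, with 0 members called under any setting. The cause was not tested. Over 13 members with several probe sets above the filter, 35 of 52 comparisons had 1 sign in all of a gene's probe sets, with a median spread of 0.35 log2 units. Pecam1, Robo4 and Sele lay near background, which limits what their differences show. Kdr lay not far above it in Ath29 mice on Western diet (35.1 units) and in B6 mice on chow (38.7 units).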
